A study of Mus musculus with 21 samples.

Results

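The imprinted Peg3 domain of proximal mouse chromosome 7 was described by its genes Peg3, Usp29, Zim1 and Zfp264 in mouse embryonic stem cells cultured under different pluripotency media. The genes were selected because Peg3 had varied strongly between the groups of these same libraries, so their levels and differences between groups are given as a description, without a test. Members were found by matching Ensembl gene IDs to the 4 symbols. Of these, 3 had an entry among the 31053 gene IDs of the count tables, and Zfp264 (ENSMUSG00000109176), a transcribed unprocessed pseudogene in GENCODE, was not analysed here. Peg3 alone passed the filter on low counts.

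In an imprinted domain, genes are transcribed mainly from the chromosome inherited from one parent, and the choice is held by DNA methylation laid down in the germ line. In the Peg3 domain the control region spans the start of Peg3 and is methylated on the maternal chromosome, so that Peg3, Usp29 and Zfp264 are expressed from the paternal chromosome, whereas Zim1 is known as maternally expressed. Peg3 encodes a large zinc finger protein that binds DNA, Usp29 a protein of the ubiquitin-specific protease family, and Zim1 another zinc finger protein. Imprints are known to be prone to loss in cultured embryonic stem cells. The counts carried no information on alleles, so the parental origin of the reads, and DNA methylation, were not measured.

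All 21 libraries came from E14Tg2a cells, a male embryonic stem line (129 background) in which the reporter GFPd2 is knocked into a single allele of REX1 (Zfp42), a gene of naive pluripotency. They formed 7 groups of 3 replicates: 2i+LIF PO, 2i+LIF LP, CH+LIF LP, LIF LP, 2i+LIF HP, CH+LIF HP and LIF HP. The cytokine LIF acts through STAT3, CH (CHIR99021) inhibits the kinase GSK3, PD (PD0325901) inhibits the kinase MEK, and 2i usually denotes both inhibitors. Every library carried the same growth protocol: NDiff227 medium with 3 µM CHIR99021 and 1 µM PD0325901 for 1 week, followed by passages at which CH, PD and LIF were given or withdrawn. The study sampled zero passage, 1 month and 2 months of culture. PO was read as zero passage, since it occurred in 2i+LIF alone, and whether LP or HP was the longer culture is not given by the labels. Nothing stated whether replicates were separate cultures, so errors and p-values measure the spread between these libraries, which may be technical.

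Gene counts per library ranged from 1132126 to 3783043, with a median of 1763531. A pair of libraries stood apart: in 2i+LIF LP replicate 1, Gm42418, which overlaps a ribosomal RNA gene, took 31.7% of gene counts, and in 2i+LIF PO replicate 1, 39.1% were mitochondrial, against at most 10.9% and 9.84% in the other libraries. An identifier of the deposited counts differed between the 3 PO libraries and the other 18. It was read as a run, which the labels do not state, and any such difference cannot be told apart from PO. Targets of the inhibited pathways went against some labels. Dusp6, a target of ERK signalling that MEK inhibition lowers, had 0.409 ± 0.708 CPM (counts-per-million; SD, n = 3) in LIF HP, whose label names no inhibitor, and between 0.698 and 34.3 CPM in the libraries labelled 2i+LIF LP. Axin2, a Wnt target that CHIR99021 raises, had 58.3 ± 13.0 CPM in 2i+LIF HP (SD, n = 3) and group means between 0.759 and 14.8 CPM elsewhere, 2i+LIF PO and 2i+LIF LP included. Groups are therefore named as labelled, and no direction below is tied to an inhibitor. All 10 markers of naive pluripotent cells had counts in every group, with summed levels between 1412 and 4025 CPM.

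Peg3 (ENSMUSG00000002265) lies on the minus strand at chr7:6703892-6730431 in GRCm38, and Usp29 (ENSMUSG00000051527) on the plus strand at chr7:6730578-6967219, so the pair are transcribed away from each other from a short shared interval. Zim1 (ENSMUSG00000002266) follows Peg3 on the minus strand at chr7:6671269-6696450. The interval between Peg3 and Usp29 is shown because it is the promoter region that the pair share and lies in the imprinting control region. It spans chr7:6730432-6730577, and is printed 5′ to 3′ on the plus strand from RefSeq's GRCm38.p6, with each CCAAT match in capitals.
Peg3-Usp29 intergenic: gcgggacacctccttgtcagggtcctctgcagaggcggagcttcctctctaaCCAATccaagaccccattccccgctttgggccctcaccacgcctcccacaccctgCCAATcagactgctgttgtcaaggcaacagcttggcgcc
RefSeq places 163 bases between the starts of the pair, and the window begins 13 bases before the Peg3 start. It has a GC content of 61.6% and holds 5 CpG sites. The median over the same window of 32851 RefSeq promoters was 4 CpG sites, and 44.4% of promoters had at least as many. Both strands were searched for 4 motifs. The CCAAT box (CCAAT) occurred 2 times, at positions 53 and 108 from the left end, and occurs in 24.3% of the promoters. No match was found for the GC box (GGGCGG, in 27.1% of promoters), the core of the YY1 site (GCCATNTT, 2.13%) or the TATA box (TATAAA, 7.51%).

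Peg3 was detected in all 21 libraries, with 1715 counts in total. Its level was highest in 2i+LIF HP and lowest in 2i+LIF PO and LIF HP. In 2i+LIF PO it had 7.36, 16.4 and 15.9 CPM in replicates 1, 2 and 3, from 14, 63 and 64 counts. In 2i+LIF LP it had 44.7, 42.9 and 50.7 CPM, from 64, 100 and 91 counts. In CH+LIF LP it had 47.3, 33.15 and 40.9 CPM, from 98, 55 and 54 counts. These LP libraries all lay above every PO library, and the LP groups overlapped each other.

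In LIF LP, Peg3 had 50.4, 35.01 and 38.3 CPM, from 92, 53 and 80 counts. In CH+LIF HP it had 33.6, 34.7 and 40.9 CPM, from 52, 73 and 54 counts. The values of CH+LIF HP lay within the range of the LP libraries. In 2i+LIF HP it had 55.5, 183 and 180 CPM, from 120, 338 and 189 counts. Replicate 1 of 2i+LIF HP was far below its replicates and just above the highest 2i+LIF LP library. In LIF HP it had 21.0, 6.75 and 9.24 CPM, from 41, 11 and 9 counts, and replicate 1 was the highest of that group. The LIF HP libraries lay below all libraries other than those of 2i+LIF PO, with which they overlapped.

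**Figure D1:**
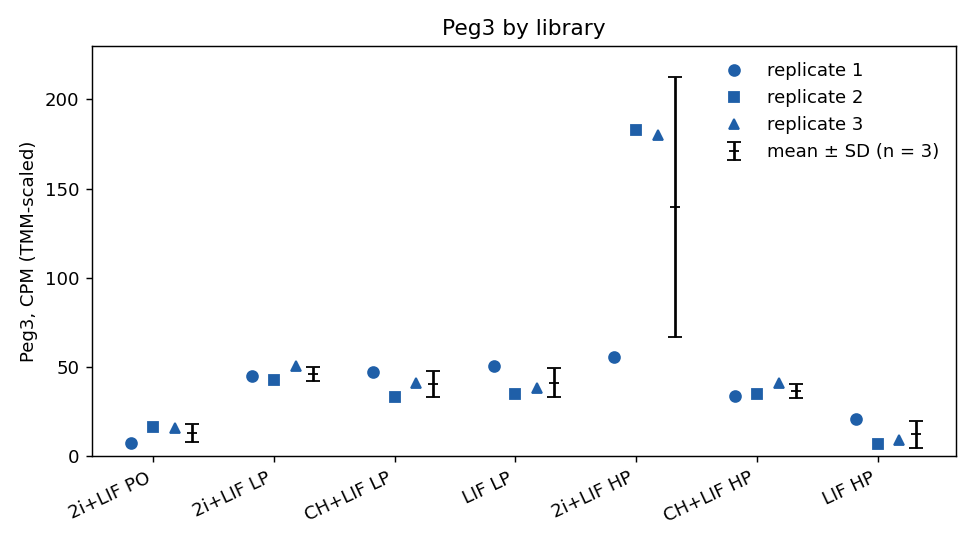
Peg3 in each library in CPM (counts-per-million, TMM-scaled), by group on the horizontal axis; symbols are replicates 1 to 3, and the bar with whiskers is the group mean ± SD (n = 3). The 2i+LIF HP libraries range from 55.5 to 183 CPM, above every other group, and the 2i+LIF PO and LIF HP libraries lie at or below 21.0 CPM.

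The group means, in descending order, were 139.5 ± 72.8 CPM in 2i+LIF HP, 46.1 ± 4.06 CPM in 2i+LIF LP, 41.2 ± 8.08 CPM in LIF LP, 40.4 ± 7.07 CPM in CH+LIF LP, 36.4 ± 3.97 CPM in CH+LIF HP, 13.2 ± 5.07 CPM in 2i+LIF PO and, lowest, 12.3 ± 7.63 CPM in LIF HP (SD, n = 3 each). Peg3 thus fell into 3 ranges: 1 high group, 4 middle groups and 2 low groups. Among neighbours in that order, 2i+LIF HP exceeded 2i+LIF LP by 93.4 CPM, with a pooled SD of 51.6 CPM, and CH+LIF HP exceeded 2i+LIF PO by 23.2 CPM, with a pooled SD of 4.55 CPM. The other 4 neighbouring pairs differed by less than their pooled SD and overlapped. Counts measure a share of the RNA of a whole culture, so fewer cells with the transcript and less transcript per cell cannot be told apart.

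The 3 groups labelled HP differed in Peg3. Relative to 2i+LIF HP, Peg3 was 3.83-fold lower in CH+LIF HP, a log2 fold change of -1.94 (SE 0.42), and 11.0-fold lower in LIF HP, a log2 fold change of -3.45 (SE 0.46). It was 2.86-fold lower in LIF HP than in CH+LIF HP, with a log2 fold change of -1.52 (SE 0.45). The libraries of each of these pairs of groups did not overlap. Over all 10643 genes tested, edgeR called 2.02% between CH+LIF HP and 2i+LIF HP, 3.78% between LIF HP and 2i+LIF HP, and 1.47% between LIF HP and CH+LIF HP at an adjusted p under 0.05. Nothing is read from these shares for Peg3, which was chosen on this variation. Without LIF HP replicate 1, the last 2 differences in Peg3 were -4.17 and -2.23.

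The 3 groups labelled LP had Peg3 levels within the spread between replicates. The log2 fold changes were -0.19 (SE 0.41) for CH+LIF LP against 2i+LIF LP, -0.16 (SE 0.41) for LIF LP against 2i+LIF LP and 0.03 (SE 0.42) for LIF LP against CH+LIF LP, and the libraries overlapped in each. With SEs of this size, smaller differences in either direction were not detectable.

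Between LP and HP, Peg3 moved in opposite directions in 2i+LIF and LIF. In 2i+LIF it was 3.02-fold higher at HP, a log2 fold change of 1.60 (SE 0.42), and in LIF it was 3.25-fold lower at HP, a log2 fold change of -1.70 (SE 0.45), with no overlap of libraries in either. In CH+LIF the difference was -0.15 (SE 0.42) and the libraries overlapped. The difference between these differences was -3.30 (SE 0.61) for LIF against 2i+LIF and -1.75 (SE 0.59) for CH+LIF against 2i+LIF. Of all genes, 3.67% were called between HP and LP in 2i+LIF, 9.96% in LIF and 0.0094% in CH+LIF. Without both libraries of unusual make-up, the difference of Peg3 in 2i+LIF was 1.58 (SE 0.41). Without LIF HP replicate 1, the difference in LIF was -2.43 and that between LIF and 2i+LIF was -4.01.

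Against 2i+LIF PO, Peg3 was higher in 5 of the 6 other groups, with no overlap of libraries. It was 3.41-fold higher in 2i+LIF LP (log2 fold change 1.77, SE 0.43) and 10.3-fold higher in 2i+LIF HP (3.36, SE 0.45), and the log2 fold changes in the other 3 were between 1.43 and 1.61. LIF HP overlapped 2i+LIF PO, at a log2 fold change of -0.09 (SE 0.45). Without LIF HP replicate 1 that value was -0.80, and without LIF HP replicate 2 it was 0.21. Without both libraries of unusual make-up, the values for 2i+LIF LP and 2i+LIF HP were 1.53 and 3.10. The 6 comparisons share the PO libraries, and a possible difference of run cannot be told apart from PO in them. The median log2 fold change of all genes stayed between -0.10 and 0.05 in the 15 comparisons of groups.

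**Figure D2:**
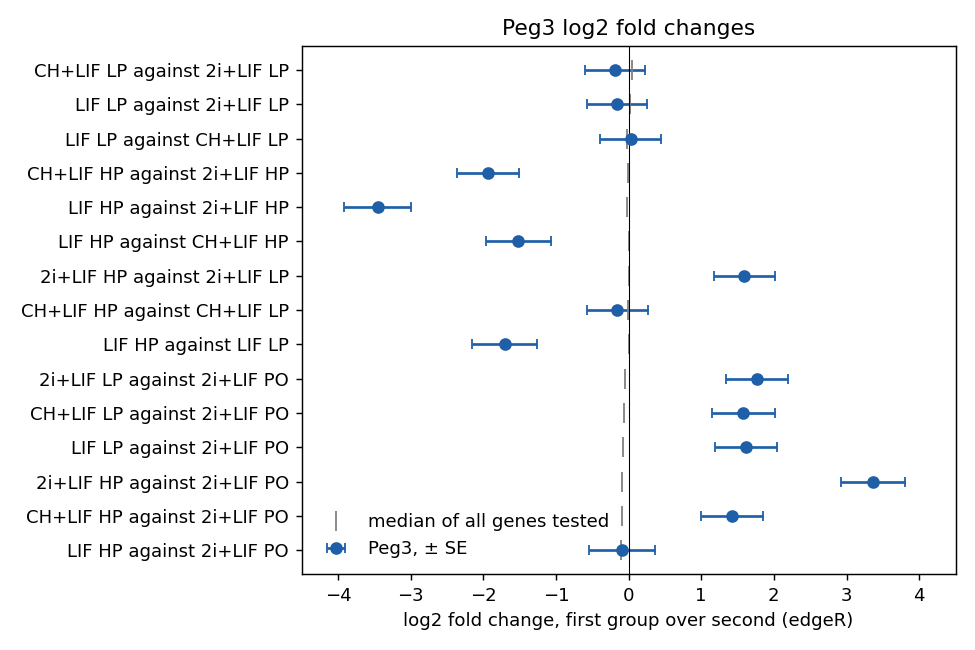
Log2 fold change of Peg3 in 15 comparisons of groups (horizontal axis, first group over second, edgeR; points ± SE); grey ticks are the median of all genes tested. The values run from -3.45 for LIF HP against 2i+LIF HP to 3.36 for 2i+LIF HP against 2i+LIF PO, while the medians of all genes lie close to 0.

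Markers of other cell types were summed per library, since Peg3 is also expressed in mesenchymal and extraembryonic tissues. The 8 fibroblast or feeder markers summed to between 3.81 and 21.1 CPM in 2i+LIF HP, 5.59 to 19.5 CPM in 2i+LIF LP and 8.59 to 10.8 CPM in LIF HP, with up to 37.8 CPM over all groups. Of this list, Col3a1, Dcn and Postn were at 0 in 2i+LIF HP and had at most 2 counts each in the whole series, whereas Lum had 4.23 ± 5.71 CPM in 2i+LIF HP (SD, n = 3) and group means of at most 0.322 CPM elsewhere. Col1a2 was at 1.91 ± 2.21 CPM in 2i+LIF HP, and 2i+LIF PO had a like mean of 1.92 ± 2.89 CPM. Thy1 had its lowest group mean in 2i+LIF HP, 1.66 CPM against 2.05 to 14.5 CPM elsewhere, and Col1a1 had 2.51 CPM there, against 1.79 to 12.4 CPM. The 6 primitive endoderm markers summed to between 3.23 and 22.2 CPM in 2i+LIF HP, against 0.479 to 6.68 CPM in the other groups, and Gata4 and Sox7 were at 0 in 2i+LIF HP. The other 4 markers of that list had their highest group means there. These were 5.24 ± 6.28 CPM for Pdgfra, 3.34 ± 4.24 CPM for Foxa2, 2.10 ± 2.33 CPM for Gata6 and 0.334 ± 0.292 CPM for Sox17 (SD, n = 3). Each of these 4 had at most 48 counts in the whole series. Over 2i+LIF HP replicates 1, 2 and 3, in which Peg3 had 55.5, 183 and 180 CPM, the fibroblast or feeder sums were 6.47, 21.1 and 3.81 CPM and the primitive endoderm sums 3.23, 22.2 and 7.63 CPM. The 6 trophoblast markers summed to between 41.0 and 86.0 CPM in 2i+LIF HP, 90.4 to 132 CPM in 2i+LIF PO and 125 to 163 CPM in LIF HP, with Elf5 at 0 in every group. In LIF HP this sum was mostly Tfap2c, at 141.6 ± 17.6 CPM (SD, n = 3). Naive pluripotent markers had their lowest sums in 2i+LIF HP, 1412 to 2112 CPM, against 1735 to 4025 CPM elsewhere. The 4 markers of primed epiblast summed to between 18.1 and 50.8 CPM in 2i+LIF HP and to between 20.5 and 23.3 CPM in LIF HP, where Fgf5 and Pou3f1 were at 0, against 38.9 to 67.7 CPM in 2i+LIF PO and 55.6 to 146.6 CPM in the 4 groups with middle levels of Peg3. The 4 neural markers ranged from 34.3 to 155.3 CPM in 2i+LIF HP, 36.8 to 72.1 CPM in 2i+LIF PO, 87.7 to 144.2 CPM in LIF HP, 188 to 207 CPM in LIF LP and 57.0 to 252 CPM in the other 3 groups. Replicate 1 of 2i+LIF HP, the lowest of its group in Peg3, also stood apart in the naive, primed epiblast and neural markers. Over replicates 1, 2 and 3 the naive sums were 2112, 1412 and 1423 CPM, the primed epiblast sums 50.8, 27.1 and 18.1 CPM and the neural sums 155.3, 64.9 and 34.3 CPM. The trophoblast sums were 86.0, 68.7 and 41.0 CPM, where replicate 3 lay farther from replicate 2 than replicate 1 did. Without 2i+LIF HP replicate 1 the log2 fold changes of Peg3 were 1.98 for 2i+LIF HP against 2i+LIF LP, -2.32 for CH+LIF HP and -3.83 for LIF HP, each against 2i+LIF HP, and 3.75 for 2i+LIF HP against 2i+LIF PO. The part of these markers in the level of Peg3 was not tested.

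Usp29, the neighbour that shares the interval printed above, was near the limit of detection, with 37 counts in 10 of 21 libraries. Replicates 1, 2 and 3 had 5, 0 and 8 counts in 2i+LIF HP, 1, 2 and 6 in 2i+LIF LP, and 9, 0 and 1 in CH+LIF LP. They had 0, 0 and 3 counts in LIF LP and 0, 1 and 1 in CH+LIF HP, and no count in any library of 2i+LIF PO or LIF HP. The groups without a Usp29 count were thus the same pair in which Peg3 was lowest. In each of the other 5 groups at least 1 library had no more than 1 count, and the SD between replicates ranged from 0.383 to 3.91 CPM, against group means from 0.411 to 3.31 CPM.

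Pooled over replicates, Usp29 had 2.79 counts-per-million of gene counts in 2i+LIF HP (95% Poisson interval 1.48 to 4.77), 2.11 in CH+LIF LP (1.01 to 3.88), 1.63 in 2i+LIF LP (0.743 to 3.09), 0.636 in LIF LP (0.131 to 1.86) and 0.416 in CH+LIF HP (0.0504 to 1.502). For a group without counts the limit was set at 3 counts over the group, or 0.552 per-million in LIF HP and 0.297 per-million in 2i+LIF PO, where the upper 95% Poisson limits of a count of 0 are 0.679 and 0.365. These intervals and limits cover counting error only. The pooled level in 2i+LIF HP was 5.05 times the limit of LIF HP and 9.40 times that of 2i+LIF PO. At the lower Poisson limit of 2i+LIF HP these ratios were 2.69 and 5.01. Replicate 3 held 8 of the 13 counts, and without it the pooled level was 2.57 and 4.78 times the limits, and its lower Poisson limit 0.833 and 1.55 times. Without that library a difference from LIF HP was therefore not shown. CH+LIF LP and 2i+LIF LP stood at 3.82 and 2.945 times the limit of LIF HP. Replicate 1 held 9 of the 10 counts of CH+LIF LP, which without it was at 0.626 times that limit, and without replicate 3, 2i+LIF LP was at 1.38 times it. The intervals of the 5 groups with counts overlapped. Usp29 overlaps Zim3 in the annotation, and RefSeq lists the antisense gene Peg3os within Peg3. The strand setting of the counting is not given in the sources used here, so the counts of Usp29 and Peg3 may hold reads of these overlapping genes.

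Zim1, known as the maternally expressed member, had 6 counts in 4 libraries. These were 2 in LIF LP replicate 2, 1 each in replicates 1 and 2 of 2i+LIF HP and 2 in LIF HP replicate 1. Pooled levels were 0.424, 0.429 and 0.368 counts-per-million of gene counts in LIF LP, 2i+LIF HP and LIF HP, and the limits that a count of 0 allows in the other groups were between 0.297 and 0.632. No order among groups was detectable for Zim1 at this depth.

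**Figure D3:**
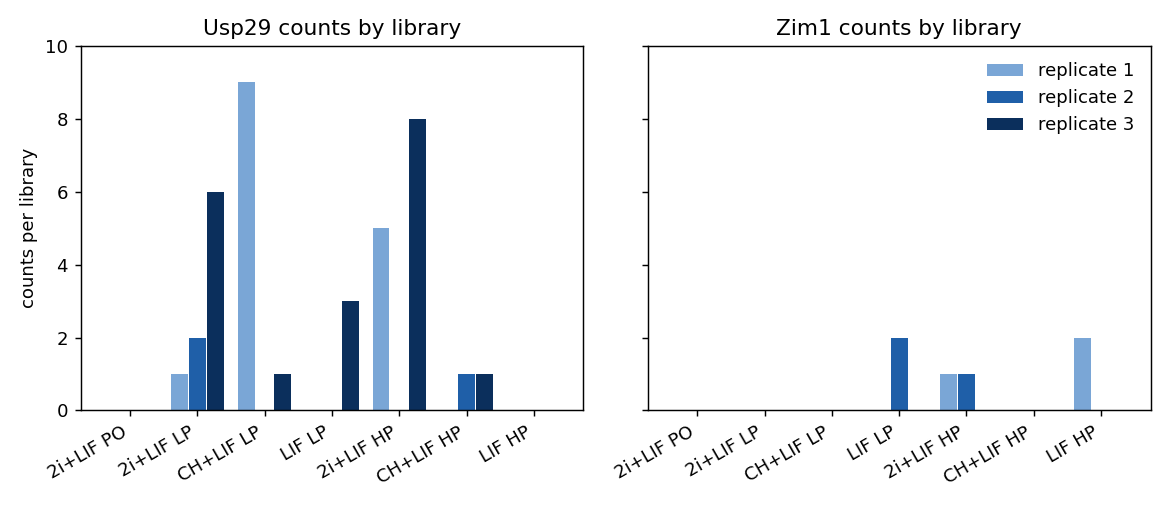
Counts of Usp29 (left) and Zim1 (right) in each library, by group; bars are raw counts of replicates 1 to 3. Usp29 reaches 9 counts in 1 CH+LIF LP library and has none in 2i+LIF PO and LIF HP, and Zim1 does not exceed 2 counts.

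Whether Peg3 and Usp29 rose and fell together between replicates was tested, since the choice of the genes used differences between groups only. Deviations of log2 CPM (with a prior count of 2) from the group mean were correlated over 21 libraries, and libraries were permuted within groups. Pearson's r was 0.0817 (exact permutation p = 0.794, two-sided, 279936 permutations) and Spearman's rho was 0.121 (exact permutation p = 0.663), and this was the 1 pair tested. In the 6 libraries of 2i+LIF PO and LIF HP, Usp29 was at 0 and could not vary, and over the other 15 libraries, a choice made after seeing the data, r was 0.111 (exact permutation p = 0.794) and rho 0.243 (exact permutation p = 0.532). The 2 libraries whose Peg3 deviation from the group mean lay farthest from the median deviation were replicate 1 of 2i+LIF HP and of LIF HP. Without them, r was 0.21 (exact permutation p = 0.216). Single libraries moved the value: r was -0.138 (exact permutation p = 0.907) without 2i+LIF HP replicate 3 and 0.393 (exact permutation p = 0.0934) without 2i+LIF HP replicate 2. A joint variation of the pair was not detectable at these counts of Usp29.

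Other imprinted genes were taken from a list of 54 outside the Peg3 domain, of which 51 had an entry and 32 were tested. In the edgeR test for any difference among the 7 groups, 14 of the 32 were called, or 43.75%, against 22.6% of all genes tested. They comprised 9 of the 19 tested paternally expressed genes and 5 of the 13 tested maternally expressed genes. Gnas stood in the paternal list, although counts per gene do not separate the transcripts of its locus, of which some are known as paternal, some as maternal and some as expressed from both alleles. Those called included Plagl1, a zinc finger transcription factor (adjusted p = 2.047e-05), Zdbf2, a zinc finger protein (9.545e-05), Dio3, which inactivates thyroid hormone (0.0001194), Mest, a hydrolase-fold protein (0.0004761), and Slc38a4, an amino acid transporter (0.0006098). Gnas, a G protein subunit, Mkrn3, Nnat, Igf2r, the receptor that clears IGF2, and Grb10, an adaptor of insulin receptor signalling, had adjusted p between 0.001091 and 0.01033. The remaining 4 were Sfmbt2, Ppp1r9a, Mirg and Copg2. Ppp1r9a was not called without LIF HP replicate 2 or 3 (adjusted p up to 0.05848), Mirg without 2i+LIF HP replicate 2 or 3 or CH+LIF HP replicate 2 (up to 0.05812), and Copg2 without 2i+LIF HP replicate 3, CH+LIF HP replicate 2 or CH+LIF LP replicate 1 or 3 (up to 0.08673). Several overlap another gene in the tables, namely Mest with Copg2, Nnat with Blcap, Igf2r with Airn, Gnas with Nespas and Mkrn3 with Gm32061, and their counts may share or lose reads.

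Of the 10 imprinted genes with the lowest adjusted p, Plagl1, Mest, Slc38a4, Mkrn3 and Igf2r had their highest group mean in 2i+LIF HP. Of the rest of the 32 tested, only Zrsr1, Sfmbt2 and Copg2 did so. Of all genes tested, 14.7% had their highest mean there. The 10 were picked for differing among these groups, so their share is not comparable with that of all genes. For Mkrn3 the mean in 2i+LIF HP, 38.1 ± 17.0 CPM, was within the spread of that in LIF HP, 36.1 ± 8.82 CPM (SD, n = 3). For Igf2r it was 69.1 ± 18.7 CPM, within the spread of CH+LIF HP, 59.6 ± 13.0 CPM. Slc38a4 had 96.6 ± 45.1 CPM in 2i+LIF HP (SD, n = 3) and 59.4 ± 32.4 CPM in 2i+LIF PO, where Peg3 was low. Zdbf2 was lowest in 2i+LIF HP, at 45.8 ± 9.55 CPM, and in LIF HP, at 65.1 ± 8.34 CPM, and had 349 ± 24.5 CPM in LIF LP (SD, n = 3). Mest was lowest in the groups where Peg3 was low, with 0.175 ± 0.303 CPM in 2i+LIF PO, 3.76 ± 1.19 CPM in LIF HP, group means between 10.1 and 15.2 CPM in the middle groups of Peg3 and 16.3 ± 7.86 CPM in 2i+LIF HP (SD, n = 3). Plagl1 was at 57.5 ± 29.3 CPM in 2i+LIF HP but at 2.25 ± 0.367 CPM in LIF LP. Dio3 had its highest mean, 28.0 ± 7.49 CPM, in 2i+LIF PO. In the Plagl1 and Mest means, 2i+LIF LP varied widely, at 37.6 ± 29.4 and 12.1 ± 8.09 CPM (SD, n = 3).

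**Figure D4:**
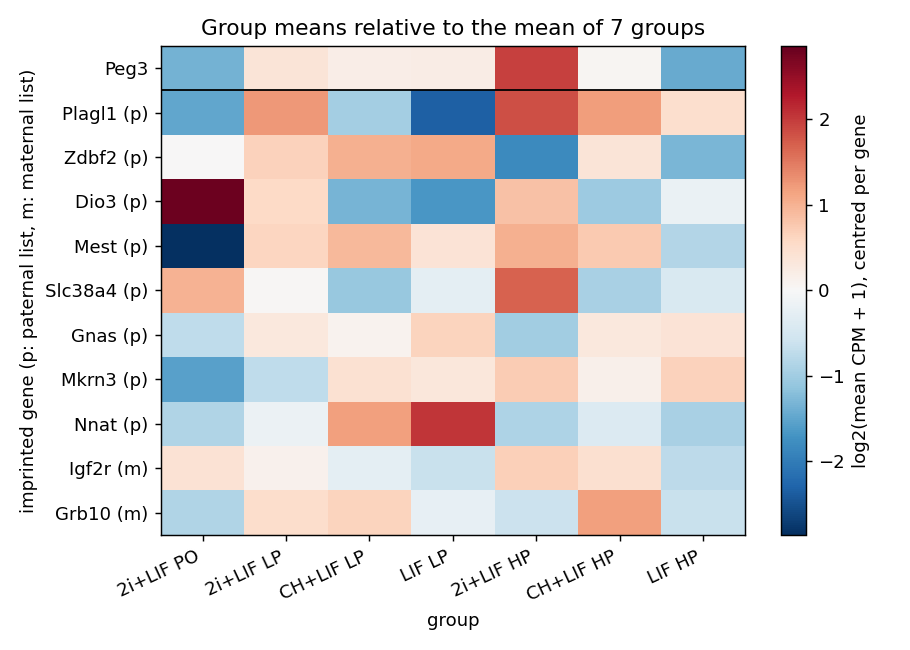
Group means of Peg3 (top row) and of the 10 other imprinted genes with the lowest adjusted p, as log2(mean CPM + 1) minus the mean over the 7 groups of each gene; colours give the difference, and p and m mark the paternally and maternally expressed lists. Peg3, Plagl1, Mest, Slc38a4, Mkrn3 and Igf2r have their highest mean in 2i+LIF HP, where Zdbf2 and Gnas are lowest.

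From LP to HP in 2i+LIF, where Peg3 was higher at HP, 1 of the 32 imprinted genes rose and 2 fell, against 3.67% of all genes called. Mkrn3 rose by a log2 fold change of 1.49 (SE 0.43, adjusted p = 0.04756), a call kept under 10 of 28 alternatives. Its adjusted p was 0.05816 without both libraries of unusual make-up and 0.05288 with the replicate block, and reached 0.2374 with single libraries left out, among them any 2i+LIF LP library and 2i+LIF HP replicate 2 or 3. Gnas fell by 1.30 (SE 0.29, adjusted p = 0.01061) and Zdbf2 fell by 2.48 (SE 0.44, adjusted p = 0.001386) on the log2 scale. Gnas was not called without 2i+LIF HP replicate 2 (adjusted p = 0.07382). In LIF, where Peg3 was lower at HP, 1 rose and 4 fell, against 9.96% of all genes called: Plagl1 rose by 3.27 (SE 0.67, adjusted p = 0.003446), and Zdbf2 (-2.42, SE 0.44, adjusted p = 0.001253), Nnat, Ppp1r9a and Ube3a fell. The call was lost for Nnat without LIF HP replicate 1 or 3, for Ppp1r9a without LIF HP replicate 2, and for Ube3a without LIF LP replicate 1 or 2 or LIF HP replicate 2 or 3, with adjusted p of up to 0.06948, 0.06249 and 0.08474. In CH+LIF none was called in the edgeR fit of all groups or by DESeq2, and 5 of the 32 had an unadjusted p under 0.05; edgeR called 1 without the filter and 1 in a fit of only the 2 groups. List medians were -0.14, -0.13 and 0.00 in 2i+LIF, LIF and CH+LIF, against 0.01, 0.01 and 0.00 for all genes. In the fit of only the 2i+LIF HP and LP groups none of the list was called, and 8 had an unadjusted p under 0.05 in the fit of all groups.

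At HP, 4 of the 32 imprinted genes were called between CH+LIF and 2i+LIF, 3 between LIF and 2i+LIF and 2 between LIF and CH+LIF, or 12.5%, 9.38% and 6.25%, against 2.02%, 3.78% and 1.47% of all genes. Slc38a4, like Peg3, was lower in both other media than in 2i+LIF, with log2 fold changes of -2.69 (SE 0.53, edgeR adjusted p = 0.00494) in CH+LIF and -2.17 (SE 0.52, adjusted p = 0.0183) in LIF. Igf2r was lower in LIF than in 2i+LIF, at -1.45 (SE 0.34, adjusted p = 0.01657). Gnas was higher in both other media, at 1.30 and 1.39 (adjusted p = 0.01361 and 0.006731). Relative to 2i+LIF HP, Zdbf2 and Mirg were higher in CH+LIF HP, and Zdbf2 and Ppp1r9a were lower in LIF HP than in CH+LIF HP. Slc38a4 was not called in CH+LIF without CH+LIF HP replicate 2 (adjusted p = 0.05021), or in LIF without 2i+LIF HP replicate 2 or 3 or any single LIF HP library (up to 0.09878). Igf2r was not called without replicate 2 or 3 of 2i+LIF HP or of LIF HP (up to 0.09553), and Gnas not in CH+LIF without 2i+LIF HP replicate 2 or 3 or CH+LIF HP replicate 3 (up to 0.1044), or in LIF without LIF HP replicate 2 (0.05606). The call of Gnas in CH+LIF was also lost without the filter on low counts. The calls of Mirg against 2i+LIF HP, and of Zdbf2 and Ppp1r9a between LIF and CH+LIF, were kept under 18, 19 and 18 of 28 alternatives. List medians were 0.04, -0.12 and -0.11, against -0.01, -0.02 and 0.01 for all genes. Without both libraries of unusual make-up, which belong to none of these groups, the 3 counts were 7, 8 and 5. The count between LIF and 2i+LIF ranged from 0 to 7, and that between LIF and CH+LIF from 0 to 4, when single libraries were left out; the first was 0 without LIF HP replicate 2.

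Genes that write, keep or remove DNA methylation or protect imprints were followed because the imprint of the domain rests on it. Of 15 such genes, all tested, 9 (60%) were called among the 7 groups, against 22.6% of all genes, namely Dppa3, Dnmt3l, Uhrf2, Zfp57, Dnmt3b, Setdb1, Tet1, Dnmt1 and Tet2. The Tet2 call was kept under 17 of 27 alternatives. The Dnmt1 call was lost without 2i+LIF LP replicate 1, CH+LIF HP replicate 1 or LIF HP replicate 2 or 3 (adjusted p up to 0.3074), and its adjusted p was 0.2218 without both libraries of unusual make-up. Dppa3, which encodes a factor that acts on DNA methylation in the early embryo, was also highest in 2i+LIF HP, with 83.9 ± 53.4 CPM (SD, n = 3), against group means of at most 2.70 CPM elsewhere. Its log2 fold change between HP and LP in 2i+LIF was 5.25 (SE 0.95, edgeR adjusted p = 0.001978). Uhrf2, a relative of the maintenance factor Uhrf1, had 7.86 ± 2.91 CPM in 2i+LIF LP against 74.8 ± 16.3 CPM in 2i+LIF HP, a log2 fold change of 3.24 (SE 0.45, adjusted p = 0.0001302).

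Dnmt3l, a cofactor of de novo methylation, was low in both 2i+LIF HP and LIF HP, the groups with the highest and the lowest level of Peg3. It had 6.92 ± 2.84 CPM in the former and 1.06 ± 1.34 CPM in the latter, against 174 ± 37.1 CPM in CH+LIF LP (SD, n = 3). The log2 fold changes between HP and LP were -3.80 (SE 0.64, edgeR adjusted p = 0.0008309, a call lost in the fit of only those 2 groups) in 2i+LIF and -6.37 (SE 0.79, adjusted p = 1.304e-05) in LIF. Zfp57, the zinc finger protein that protects imprints, was highest in 2i+LIF PO, at 121 ± 69.8 CPM, and lowest in LIF HP (23.1 ± 4.92 CPM), with similar means in 2i+LIF HP (24.3 ± 16.2 CPM) and CH+LIF LP (30.4 ± 7.17 CPM; SD, n = 3). It fell between LP and HP in LIF by 1.59 on the log2 scale (adjusted p = 0.02936, and up to 0.1237 with single LIF LP or LIF HP libraries left out). Its partner Trim28 was not called (adjusted p = 0.7973), with group means between 338 and 574 CPM. Dnmt3l overlaps Aire, Dnmt3b its antisense gene Dnmt3bos and Setdb1 Cers2 in the annotation.

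Within 500 kb of Peg3 the tables held 27 other genes, of which 12 had at least 10 counts and 8 were tested. Among the 7 groups 3 of the 8 (37.5%) were called, against 22.6% of all genes: Aurkc (adjusted p = 1.577e-06), Epp13 (1.907e-05) and Zfp773 (0.02952). Aurkc (ENSMUSG00000070837, chr7:6995300-7003091), a kinase known from germ cell division, had 149.2 ± 96.8 CPM in 2i+LIF HP, 97.9 ± 27.6 CPM in LIF HP and group means between 1.86 and 16.1 CPM elsewhere (SD, n = 3). It rose from LP to HP in 2i+LIF by a log2 fold change of 4.83 (SE 0.76, edgeR adjusted p = 0.0004859) and in LIF by 2.93 (SE 0.68, adjusted p = 0.008587), and both calls were kept under all 28 alternatives. In LIF, its direction was thus opposite to that of Peg3, which was lowest in LIF HP.

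Epp13 (ENSMUSG00000053367, chr7:6252710-6282066) was highest in 2i+LIF HP, at 52.4 ± 12.3 CPM, and lowest in LIF LP, at 1.54 ± 1.17 CPM (SD, n = 3). It rose from LP to HP in LIF by a log2 fold change of 3.40 (SE 0.65, edgeR adjusted p = 0.001855), and had a log2 fold change of 1.75 (adjusted p = 0.05174) in 2i+LIF. Zfp773 (ENSMUSG00000063535, chr7:7127073-7136755), a zinc finger gene, rose from 3.28 ± 1.81 to 18.2 ± 3.15 CPM between LP and HP in 2i+LIF, a log2 fold change of 2.42 (SE 0.58, adjusted p = 0.01764). This call and that among the 7 groups were lost without 2i+LIF HP replicate 2 or 3 or 2i+LIF LP replicate 2 (adjusted p up to 0.06475 and 0.06297), and the former also in the fit of only the 2 groups. The zinc finger genes Zfp667, Zfp28, Zfp954 and Zfp772, and Gm3854, were not called among the groups. Zscan5b, Zfp583, Zfp78 and Zfp418 had between 24 and 115 counts in all and were not tested.

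**Figure D5:**
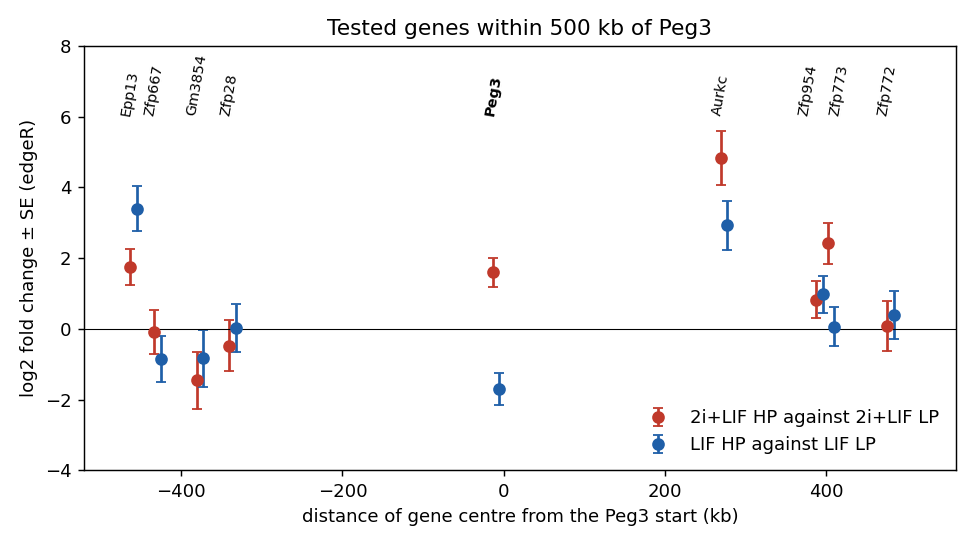
Log2 fold change (± SE, edgeR) of HP against LP in 2i+LIF (red) and LIF (blue) for Peg3 and the 8 tested genes within 500 kb, by distance of the gene's centre from the Peg3 start in kb. Aurkc lies above 0 in both media, at 4.83 and 2.93, whereas Peg3 lies at 1.60 in 2i+LIF and at -1.70 in LIF.

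The genes whose log2 CPM was most like that of Peg3 over the 21 libraries, among 10510 genes of at least 5 CPM in a group, were Phlda1 (Pearson's r 0.844), the splicing factor gene Sf3a1 (0.833), Zfp622 (0.827), Utp14b (0.818) and the cyclin gene Ccny (0.814). These values are a description over libraries that share group, presumed run and depth. None of the 5 lies on chromosome 7. Phlda1 had 94.4 ± 80.3 CPM in 2i+LIF HP, with libraries between 24.0 and 182 CPM, 9.255 ± 3.15 CPM in LIF HP, 5.78 ± 2.40 CPM in 2i+LIF PO (SD, n = 3), and group means between 32.3 and 49.5 CPM in the middle groups of Peg3. For Usp29 the highest were Afap1 (0.767), Cul4b (0.751), Sh3gl2 (0.73), Tfe3 (0.702) and Spdl1 (0.658), which rest on its 37 counts.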

How the data were processed

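The authors deposited 1 table of whole-number counts per Ensembl gene ID for each of 21 libraries. Per the submitters' processing notes, bcl2fastq, STAR 2.6.0a, HTSeq and the build mm10 were used; the annotation, strand setting and filters are not given in the sources used here. Of all entries per library, 47.4 to 62.0% were counts in genes, and those that name no gene (8.46 to 25.8% outside genes, 0.179 to 0.683% ambiguous, 20.8 to 35.4% not uniquely aligned) stayed out of library sizes and tests. Reads of near-identical zinc finger genes may be lost as not unique. Gene symbols with their positions are those of GENCODE M21 (GRCm38), which held 31011 of 31053 IDs; promoter sequences of RefSeq matched 3 members.

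One edgeR 4.0.16 quasi-likelihood fit (R 4.3.3, TMM scaling, filterByExpr, 10643 genes, 14 residual degrees of freedom) covered all groups. Two-sided p-values were adjusted by Benjamini and Hochberg's method over all genes per comparison, with a threshold of 0.05. CPM are counts-per-million of TMM-scaled gene counts, and are not adjusted for gene length. The SE of a log2 fold change is its size divided by the square root of F. Permutation tests used scipy 1.17.1. No replicate pair agreed within sampling noise (lowest chi-square per degree of freedom 4.82), so each library was counted as 1 replicate. Steps were tested on simulated data.

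The members, gene lists and tests were chosen with earlier results of these data known. Named genes were the members, genes within 500 kb of Peg3 with at least 10 counts, the 5 genes most correlated with Peg3 and with Usp29, and up to 10 called genes per list; the other named list genes, named after their values were seen, are the remaining calls among the 7 groups and calls of single comparisons. Axin2, Dusp6, Trim28 and markers were chosen as checks. Alternatives were DESeq2 1.42.0, DESeq2 size factors, no filter, both unusual libraries left out, mitochondrial genes and Gm42418 removed, only the groups compared, a replicate block, and each library left out in turn. For the correlation they were also prior count 0.5 and leaving out the 2 libraries whose Peg3 deviation from the group mean was farthest from the median deviation (picked by their Peg3 values). The correlation over only the groups with a Usp29 count was added after seeing the data.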

Additional observations from a re-analysis of the deposited data

Results flagged for a closer look

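Peg3 moved in opposite directions between LP and HP in 2i+LIF and in LIF: every 2i+LIF HP library lay above every 2i+LIF LP library, and every LIF HP library lay below every LIF LP library. The 2 log2 fold changes differed by 3.296. This difference was not tested, because Peg3 was chosen for its variation between these groups.

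Uhrf2, a gene related to the maintenance of DNA methylation, differed between media in the same contrast. The interaction of LIF with HP against LP was -3.667 on the log2 scale (SE 0.62, edgeR adjusted p = 0.006815), and the adjusted p stayed between 0.001802 and 0.03063 when each library was left out in turn. Uhrf2 had 7.86 ± 2.91 CPM at LP against 74.8 ± 16.3 CPM at HP in 2i+LIF, and 23.4 CPM at LP against 17.5 ± 3.13 CPM at HP in LIF (SD, n = 3).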

How the results depend on the processing

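Counts of other imprinted genes called between 2 groups depended on the processing. Between CH+LIF HP and 2i+LIF HP, 4 were called, 7 without both libraries of unusual make-up and 2 to 5 with each library left out in turn. Between LIF HP and 2i+LIF HP, 3 were called, 7 without the filter, 8 without both libraries, 6 in a fit of only the 2 groups, 6 with DESeq2 and 0 to 7 with a library left out. Between LIF HP and CH+LIF HP, 2 were called, 4 without the filter, 5 without both libraries, 8 in a fit of only the 2 groups, 4 with DESeq2 and 0 to 4 with a library left out. Between HP and LP, 3 were called in 2i+LIF (0 in a fit of only the 2 groups, 1 to 4 with a library left out), 0 in CH+LIF (1 without the filter, 1 in a fit of only the 2 groups) and 5 in LIF (8 without the filter, 3 to 6 with a library left out). The cause was not tested. Among the 7 groups, 12 to 20 imprinted genes (14 as reported) and 7 to 11 methylation genes (9 as reported) were called under the alternatives; without the filter, 46 imprinted genes were tested in place of 32, and 20 were called. With a library left out, the log2 fold change of Peg3 lay between -4.17 and -3.16 for LIF HP against 2i+LIF HP, -2.23 and -1.22 against CH+LIF HP, -2.43 and -1.41 against LIF LP, -0.80 and 0.21 against 2i+LIF PO, and -4.01 and -3.00 for the difference between LIF and 2i+LIF. LIF LP against CH+LIF LP turned to -0.14 without LIF LP replicate 1. The correlation of Peg3 with Usp29 turned to -0.138 (exact permutation p = 0.907) without 2i+LIF HP replicate 3 and reached 0.393 (p = 0.0934) without 2i+LIF HP replicate 2. With mitochondrial genes and Gm42418 removed, the mean of Peg3 was higher in all 7 groups, from 14.6 CPM in LIF HP to 165 CPM in 2i+LIF HP, and the rise exceeded the SD in 2i+LIF LP (to 55.5 CPM) and CH+LIF HP (to 42.9 CPM). Same-numbered libraries deviated together in all 3 pairs in 1 of 15 comparisons, 2i+LIF LP against PO (r of 0.397, 0.345 and 0.179), and the labels do not say that a number marks a shared culture. With the replicate number as a block, 15 imprinted and 9 methylation genes were called among the 7 groups, and 4, 4, 2, 2, 0 and 5 imprinted genes in the comparisons in the order above; Peg3 gave 1.59 for 2i+LIF HP against LP and -1.69 for LIF HP against LP. With 37 and 6 counts, Usp29 and Zim1 did not pass the filter on low counts.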
